A study of Mus musculus with 8 samples.

Results

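The genes described are 37 genes of the interferon response and of antigen presentation, chosen by symbol and not by their values, of 16593 genes that the array's probes name. They comprise 25 interferon-response genes (6 transcription factors, 5 nucleic acid sensors or RNA-binding proteins and 14 effectors), 7 genes of MHC class I presentation and 5 of class II presentation. RNA of the brain (whole brain by the series title, frozen brain hemispheres by its description) was measured on the 8 positions of an Illumina MouseRef-8 BeadChip, 1 mouse per array. The 4 Hfe-/-xTfr2mut mice were homozygous for both mutations and were fed 2% carbonyl iron during 3 weeks, whereas the 4 wild-type mice ate a diet of 0.02% iron. All 8 were male AKR mice aged 13 weeks, so genotype and diet cannot be told apart. Hfe encodes an atypical class I protein that pairs with β2-microglobulin, and Tfr2 encodes transferrin receptor 2, and 0 of the 37 members lie on the chromosome of either gene.

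Type I interferons bind a receptor whose kinases phosphorylate STAT2, which with IRF9 belongs to the complex ISGF3, and this complex binds the interferon-stimulated response element (ISRE). Interferon-γ acts at the gamma-activated site (GAS), and both routes induce antiviral effectors and the genes that load peptides on MHC molecules. In resting brain these programmes are known to run low, with class II molecules largely restricted to microglia, border macrophages and infiltrating leukocytes.

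The promoters of the members were searched for these elements, and 6 stretches that hold a match are shown, from the members that differ most between the groups (Gbp2 and Stat2) and from an effector pair, a class I gene and a transcription factor that differ less (Isg15 and Ifit3, B2m, and Irf1). Sequences are from RefSeq (GRCm38.p6), each within the 250 bases before to 50 bases after an annotated start, and 30 of the 37 members were found in that table. The letters searched were GAAA-NN-GAAA for the ISRE core and TTCNNNGAA for GAS, on both strands. Each stretch reads 5′ to 3′ along the gene, with the match in capitals, and adjoining ISRE matches run together.
Gbp2, ISRE core, chr3:142620574-142620643, + strand: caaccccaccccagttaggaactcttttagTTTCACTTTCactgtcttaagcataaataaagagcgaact
Stat2, ISRE core, chr10:128270248-128270315, + strand: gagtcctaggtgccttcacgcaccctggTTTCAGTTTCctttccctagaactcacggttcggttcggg
Isg15, ISRE core, chr4:156200845-156200926, - strand: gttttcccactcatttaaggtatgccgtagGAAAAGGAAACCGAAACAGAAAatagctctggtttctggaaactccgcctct
Ifit3, ISRE core, chr19:34583343-34583446, + strand: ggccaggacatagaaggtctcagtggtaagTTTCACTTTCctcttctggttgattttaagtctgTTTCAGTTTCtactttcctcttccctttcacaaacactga
B2m, ISRE core, chr2:122147518-122147587, + strand: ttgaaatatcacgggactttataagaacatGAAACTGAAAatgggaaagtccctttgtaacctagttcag
Irf1, GAS, chr11:53769894-53769962, + strand: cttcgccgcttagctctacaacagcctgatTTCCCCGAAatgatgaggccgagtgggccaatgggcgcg

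The ISRE core was present in 15 of the 30 members matched, against 1079 of 27025 genes in the whole table (3.99%). It stood in 9 of 12 effectors, 3 of 4 sensors and 1 of 6 transcription factors, in 2 of 6 class I members and in 0 of 2 class II members. GAS letters stood in 9 of 30 members and in 9.55% of all genes. The Y box, ATTGG on either strand, which belongs to the MHC promoter module, stood in 6 of 6 class I and 2 of 2 class II members but also in 41.1% of all genes. A match is a description of the letters only.

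Of the 37 members, all had a probe, and 20 had a probe detected in every array of at least 1 group (detection p under 0.01, a comparison with control beads that match no transcript). A further 14 were detected in no array and 3 in some arrays only. Across the series 8051 of the 16593 named genes were detected in this sense. Between 11188 and 11751 probes were detected per array in Hfe-/-xTfr2mut brain and between 11568 and 12192 in wild-type brain. The mean signal before normalization was 569.5 to 741 in Hfe-/-xTfr2mut arrays and 571 to 905 in wild-type arrays. Groups are named by their labels: the detected Hfe probe was 1.34 higher on the log2 scale in arrays labelled Hfe-/-xTfr2mut, and it does not check the labels, because where this probe lies within the gene was not examined.

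Differences between Hfe-/-xTfr2mut and wild-type brain in interferon and antigen presentation transcripts were mostly small and of both signs. Only Gbp2 and Stat2 passed an unadjusted p of 0.05, the threshold of the study, and both were lower in Hfe-/-xTfr2mut brain. That is 2 of 20 tested members, 10%, whereas 12.5% of all 8051 detected genes passed, 6.79% being higher and 5.7% lower. After Benjamini-Hochberg adjustment over all 11204 detected probes in limma, 0 members passed, against 0.199% of all genes (0.199% higher, 0% lower), and 0 members were higher at either threshold. The groups did not overlap for the same 2 members, both lower, and for 8.04% of all genes, 4.56% being higher and 3.48% lower.
The log2 differences (Hfe-/-xTfr2mut minus wild-type) were positive for 9 members and negative for 11, with a median of -0.02, beside 0.00 over all detected genes. Their median absolute size was 0.13, beside 0.12 over all genes. The direction of calls over the array depends on the scaling: 753 probes (6.72%) were higher and 674 (6.02%) lower at the unadjusted threshold here, but 356 higher and 1489 lower in the authors' average-normalized table, where 4 members were lower (Gbp2, Stat2, Adar and Cd74).

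**Figure D1:**
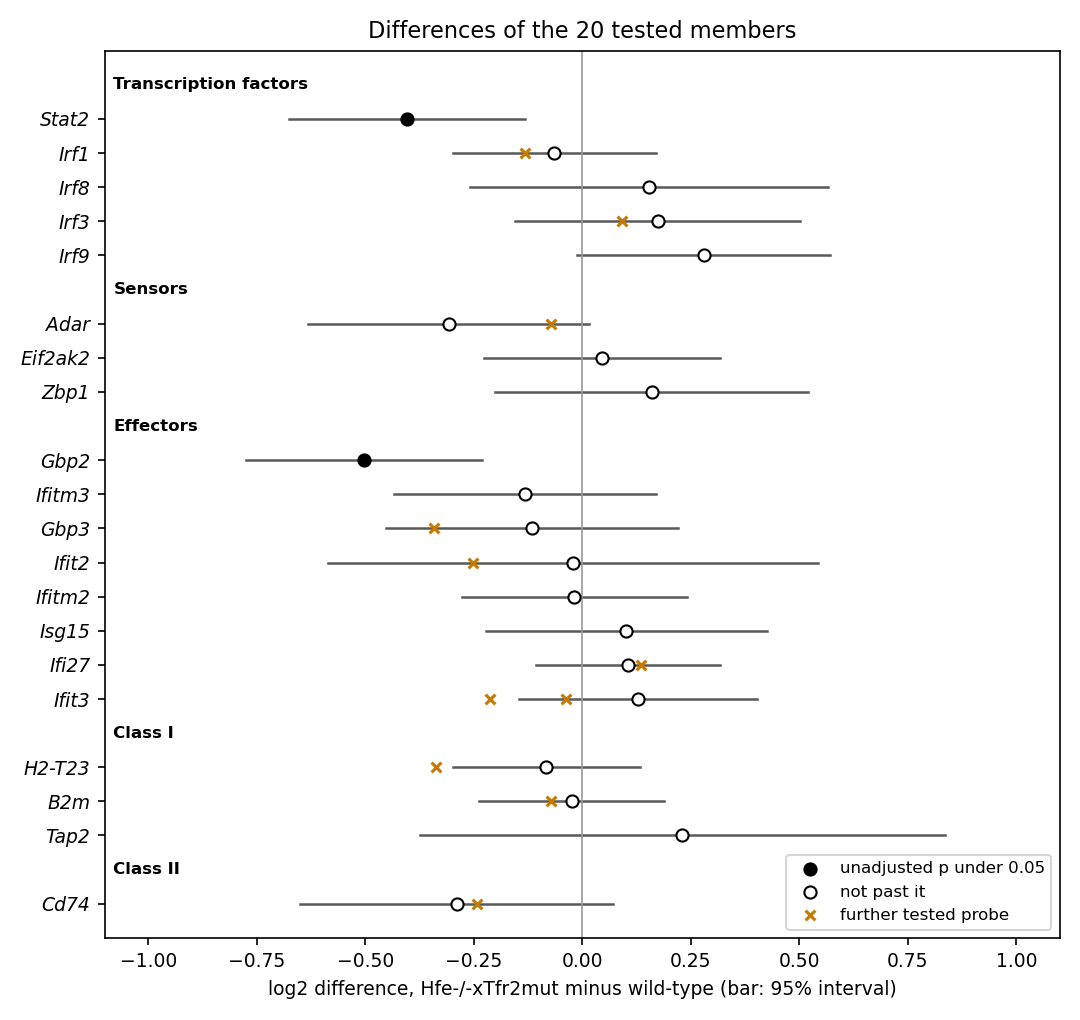
Log2 difference in signal, Hfe-/-xTfr2mut minus wild-type, of the 20 tested members by role. Circles are the brightest detected probe with its 95% interval from limma (n = 4 arrays per group), filled where the unadjusted p is under 0.05, and crosses are further tested probes of the gene. Only Gbp2 and Stat2 are filled, at -0.50 and -0.40, and the other 18 intervals include 0.

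Among the transcription factors, Stat2, the interferon-activated subunit of ISGF3, was the member that differed. Its signal was 74, 86, 86 and 71 in the Hfe-/-xTfr2mut arrays and 121, 113, 99 and 88 in the wild-type arrays. Every Hfe-/-xTfr2mut value lay below every wild-type value, although the highest of the one and the lowest of the other nearly met. The means were 79.3 ± 8.002 in Hfe-/-xTfr2mut and 105 ± 14.9 in wild-type (SD, n = 4 each), 1.32-fold lower in Hfe-/-xTfr2mut, with a log2 difference of -0.40 (SE 0.12, 95% interval -0.67 to -0.13). The limma adjusted p was 0.277 and a two-sided exact permutation test gave p = 0.0286, the smallest that 4 against 4 arrays allow. The signal was close to the detection limit, since the lowest detected signal of an array was 57.0 to 69.4 in Hfe-/-xTfr2mut and 49.6 to 61.0 in wild-type.

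Irf9, the DNA-binding partner of STAT2 in ISGF3, had signals of 142, 139, 140.1 and 124.7 in Hfe-/-xTfr2mut and 101, 105, 100.5 and 148 in wild-type. All 4 Hfe-/-xTfr2mut arrays lay above 3 of the wild-type arrays, and wild-type replicate 4 was the highest of all. The log2 difference was +0.28 (SE 0.13, 95% interval -0.01 to 0.57, limma adjusted p = 0.407). Without wild-type replicate 4 it was +0.41 and passed the unadjusted threshold, with a limma adjusted p of 0.356. The measured differences of Stat2 and Irf9 thus had opposite signs.

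The 95% intervals of the other detected interferon regulatory factors all included 0. Irf1, which interferon-γ induces, was at 298 ± 18.3 in Hfe-/-xTfr2mut and 313 ± 38.2 in wild-type, a log2 difference of -0.06 (95% interval -0.30 to 0.17), and its second tested probe gave -0.13. Irf3, the constitutive factor that starts interferon-β transcription once it is phosphorylated, differed by +0.17 (-0.15 to 0.50), with +0.09 at its second probe. Irf8, a factor of microglia and other myeloid cells, was at 90.9 ± 21.2 in Hfe-/-xTfr2mut and 81.2 ± 15.5 in wild-type, +0.15 (-0.26 to 0.57), and was detected in 3 of 4 Hfe-/-xTfr2mut and 4 of 4 wild-type arrays. Irf7, the inducible factor that amplifies type I interferon, was detected in 0 arrays and never exceeded a signal of 8.48.

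The sensors gave 0 calls. Adar, the RNA-editing enzyme that keeps endogenous double-stranded RNA from triggering sensors, had signals of 598, 657, 811 and 715 in Hfe-/-xTfr2mut and 1095, 834, 693 and 845 in wild-type. The groups overlapped through wild-type replicate 3, which lay below Hfe-/-xTfr2mut replicates 3 and 4, and all other wild-type arrays lay above every Hfe-/-xTfr2mut array. The log2 difference was -0.31 (SE 0.15, 95% interval -0.63 to 0.01, limma adjusted p = 0.408), whereas the second tested Adar probe gave -0.07. Without wild-type replicate 3 it was -0.41 and without Hfe-/-xTfr2mut replicate 3 it was -0.39, both past the unadjusted threshold, as it was in the average-normalized table (-0.39).
Eif2ak2, the kinase PKR that halts translation on double-stranded RNA, was at 448 ± 57.5 in Hfe-/-xTfr2mut and 434 ± 55.9 in wild-type (SD, n = 4 each), +0.05 (95% interval -0.23 to 0.32). Zbp1, a sensor of Z-form nucleic acids, was at 129.6 ± 25.2 in Hfe-/-xTfr2mut and 116 ± 21.9 in wild-type, +0.16 (-0.20 to 0.52). The cytosolic RNA sensors Ddx58 (RIG-I) and Ifih1 (MDA5) were detected in 0 arrays, with highest signals of 36.98 and 17.1.

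Of the effectors, Gbp2, a guanylate-binding protein that interferon-γ induces and that attacks intracellular pathogens, showed the largest difference of any tested member. Its signal was 148, 178, 198 and 163 in the Hfe-/-xTfr2mut arrays and 208, 229, 272 and 264 in the wild-type arrays. The groups were separate, with the brightest Hfe-/-xTfr2mut array below the dimmest wild-type array. The means were 172 ± 21.2 in Hfe-/-xTfr2mut and 243 ± 29.97 in wild-type (SD, n = 4 each), 1.42-fold lower in Hfe-/-xTfr2mut. The log2 difference was -0.50 (SE 0.12, 95% interval -0.77 to -0.23), with a limma adjusted p of 0.197 and p = 0.0286 in a two-sided exact permutation test. By its p-value the probe ranked 108 of the 11204 tested. Only 1 of the 3 Gbp2 probes was detected, so no second probe measured the difference.
Gbp3, its paralog, had signals of 124, 108, 153 and 152 in Hfe-/-xTfr2mut and 148, 154, 113 and 167 in wild-type. The groups overlapped, and the log2 difference was -0.12 (95% interval -0.45 to 0.22), with -0.34 at its second probe (-0.999 to 0.314). Guanylate-binding proteins are close in sequence, and the files used here do not give the probe sequences, so hybridization to more than one of them was not examined.

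**Figure D2:**
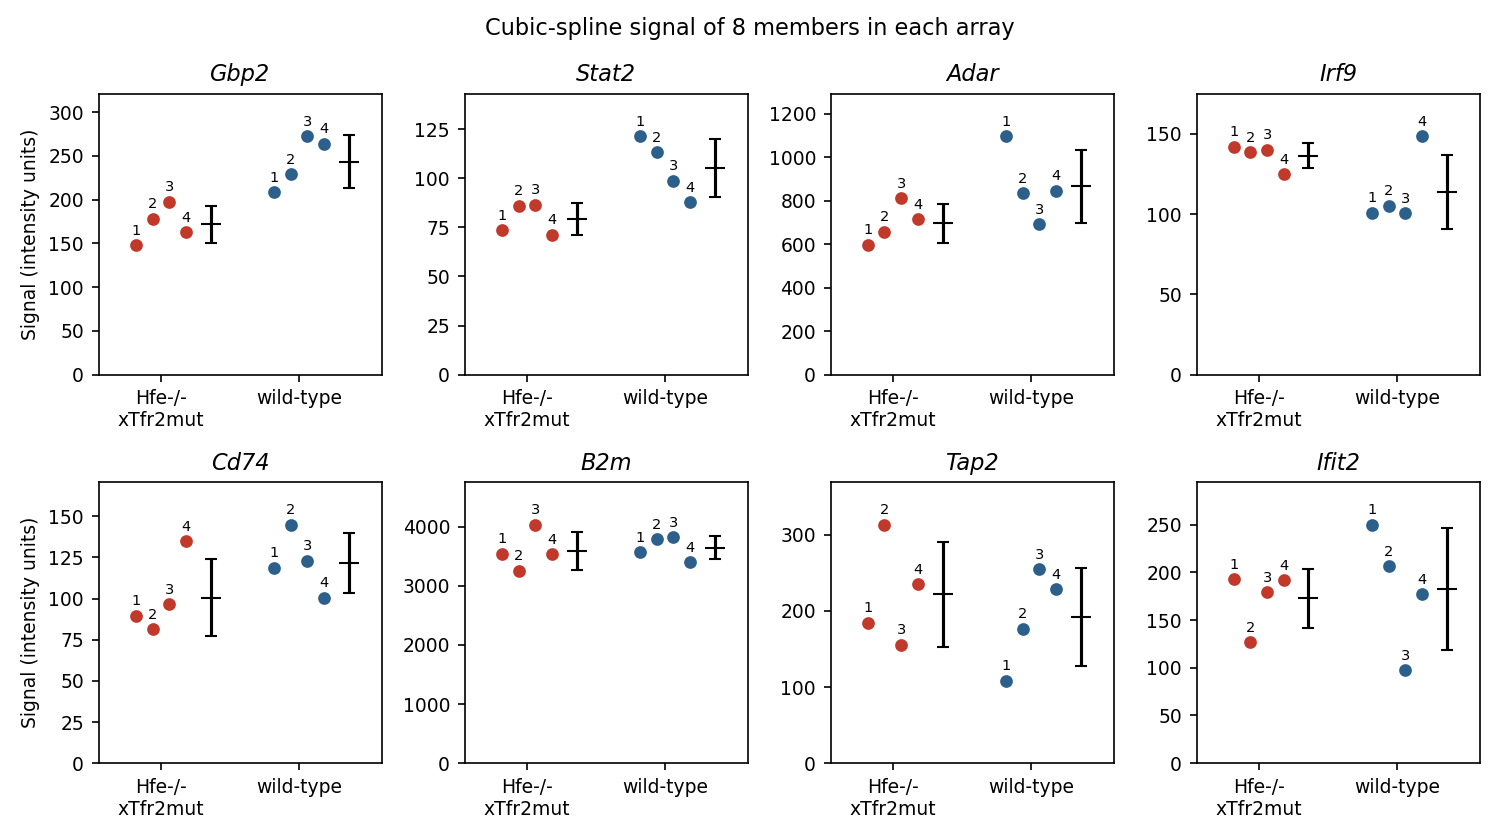
Cubic-spline signal (intensity units, axes from 0) of 8 members in each array, numbered by replicate, Hfe-/-xTfr2mut in red on the left and wild-type in blue on the right, with the mean and SD (n = 4) beside each group. The groups are separate for Gbp2 and Stat2 and overlap for Adar, Irf9, Cd74, B2m, Tap2 and Ifit2.

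The classical type I interferon-stimulated effectors did not differ by more than their spread. Isg15, a ubiquitin-like modifier and one of the most strongly induced interferon targets, with the ISRE cluster printed above, had signals of 103, 119, 105 and 128 in Hfe-/-xTfr2mut and 101, 98, 142 and 88 in wild-type. The wild-type values enclosed all Hfe-/-xTfr2mut values, and the log2 difference was +0.10 (95% interval -0.22 to 0.42).
Ifit3, which binds and scaffolds other IFIT proteins, was at 557 ± 52.3 in Hfe-/-xTfr2mut and 513 ± 75.4 in wild-type, +0.13, while its other tested probes gave -0.04 and -0.21. It was the only member whose tested probes disagreed in sign: of the 10 members with several tested probes, 9 had all of one sign. Ifit2, an inhibitor of viral translation, had signals of 193, 127, 179 and 192 in Hfe-/-xTfr2mut and 250, 207, 98 and 177 in wild-type, and its wild-type arrays thus spanned a wider range than the Hfe-/-xTfr2mut arrays. Its log2 difference was -0.02 (95% interval -0.59 to 0.54), with -0.25 at its second probe.

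Ifitm2 and Ifitm3, membrane proteins that block viral entry, differed by -0.02 (95% interval -0.28 to 0.24) and -0.13 (-0.43 to 0.17). Ifitm3 signals ran from 427 to 634 in Hfe-/-xTfr2mut and from 475 to 617 in wild-type. Ifi27, a small mitochondrial interferon-induced protein, was at 3066 ± 283 in Hfe-/-xTfr2mut and 2841 ± 129.7 in wild-type, +0.11 (-0.11 to 0.32). Its second probe had signals of 2711, 2620, 2851 and 2773 in Hfe-/-xTfr2mut and 2456, 2448, 2608 and 2455 in wild-type. These did not overlap, yet the log2 difference was only +0.14 (-0.05 to 0.32), with a limma adjusted p of 0.506 and p = 0.0286 in the exact permutation test. Of the 31 tested probes of members, 3 had separate groups, and 7.85% of all detected probes did.

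The remaining effectors lay at or near background. Ifit1, an mRNA cap sensor, Isg20, an exonuclease, Ifi35 and Rsad2 (viperin) were detected in 0 arrays, with highest signals of 12.3, -7.62, 35.5 and 56.4. Usp18, the protease that removes ISG15 and dampens receptor signalling, was detected in 1 Hfe-/-xTfr2mut and 2 wild-type arrays, and Bst2 (tetherin) in 1 array of each group. No fold is given for these genes, because both groups lay at the detection limit.

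**Figure D3:**
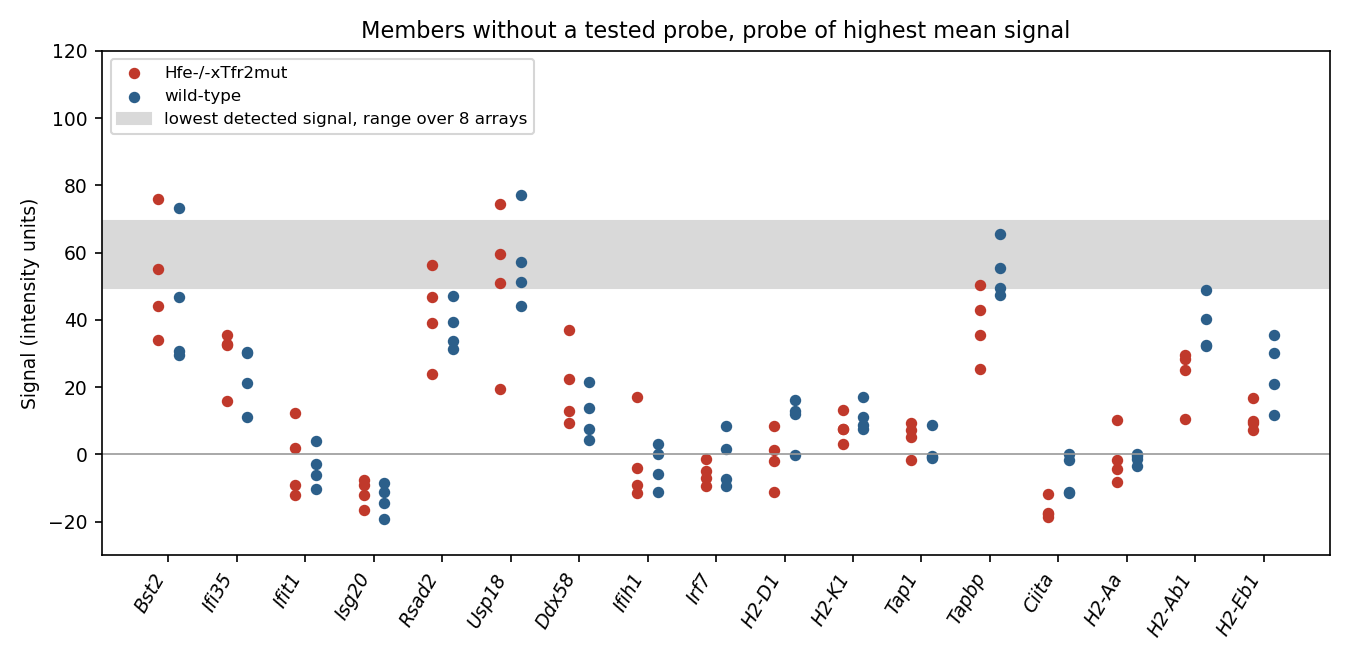
Cubic-spline signal (intensity units, background subtracted, so values can fall below 0) in each array of the 17 members without a tested probe, for the probe of highest mean signal, Hfe-/-xTfr2mut in red left of wild-type in blue. The grey band is the range over the 8 arrays of the lowest signal called detected, 49.6 to 69.4, and only Bst2 and Usp18 have points above it.

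In class I presentation, B2m, the light chain shared by class I molecules and by HFE, had overlapping signals in both groups. Its signals were 3540.1, 3257, 4029 and 3533 in Hfe-/-xTfr2mut and 3568, 3786, 3821 and 3402 in wild-type, all within one range. The means were 3590 ± 321 in Hfe-/-xTfr2mut and 3644 ± 197 in wild-type (SD, n = 4 each), and the log2 difference was -0.02 with a 95% interval of -0.24 to 0.19, with -0.07 at its second probe. The interval leaves out a change of the size fitted for Gbp2 in either direction.
H2-T23 (Qa-1), a nonclassical class I molecule that presents to NK cell receptors, was at 280.4 ± 15.7 in Hfe-/-xTfr2mut and 298 ± 27.0 in wild-type, -0.08 (95% interval -0.30 to 0.13). Its dimmer probe had signals of 146, 124.96, 201 and 136 in Hfe-/-xTfr2mut and 138, 203, 216 and 212 in wild-type, and a log2 difference of -0.34 (-0.73 to 0.06). Tap2, a subunit of the transporter that brings peptides to class I molecules, had the largest error of the tested members, with signals of 185, 313, 155 and 235 in Hfe-/-xTfr2mut and 108, 176, 255 and 229 in wild-type. The difference was +0.23 with an SE of 0.27, and its sign turned without wild-type replicate 1 (-0.02).

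The heavy chains H2-K1 and H2-D1 and the other transporter subunit, Tap1, were detected in 0 arrays, with highest signals of 16.9, 16.2 and 9.43. Of the 2 Tapbp (tapasin) probes, 1 was detected in 1 Hfe-/-xTfr2mut array only and the other in 2 wild-type arrays only. Class I genes are polymorphic between mouse strains and near-identical to each other, and whether these probes match the AKR alleles was not examined, so the values say that the probes gave no signal, not that the transcripts were absent.

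Class II presentation was represented by Cd74 alone. Cd74, the invariant chain that escorts class II molecules, had signals of 89, 81, 97 and 135 in Hfe-/-xTfr2mut and 119, 145, 123 and 100.4 in wild-type. Hfe-/-xTfr2mut replicate 4 lay within the wild-type range and the other Hfe-/-xTfr2mut arrays below it. The log2 difference was -0.29 (SE 0.16, 95% interval -0.65 to 0.07, limma adjusted p = 0.477), with -0.24 at its second probe. Without wild-type replicate 3 it was -0.38 and past the unadjusted threshold, as it was in the average-normalized table (-0.44). The second probe had signals of 92, 103, 111 and 85 in Hfe-/-xTfr2mut and 132, 148, 87 and 103 in wild-type. There replicate 4 was the lowest Hfe-/-xTfr2mut array. H2-Aa, H2-Ab1 and H2-Eb1, the chains of the class II molecules, and Ciita, their master transactivator, were detected in 0 arrays, with highest signals of 10.4, 49.0, 35.4 and 0.13.

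Genes of the same pathways outside the members were taken from lists by function. Of these 156 genes, 131 had a probe and 47 had a detected probe. At the unadjusted threshold 4 were higher and 1 lower in Hfe-/-xTfr2mut brain, 10.6% beside 12.5% of all genes, and 0 passed adjustment. Their median log2 difference was -0.03.
In class I processing 2 of 10 detected genes were higher, beside 6.79% of all genes, 0 were lower and the median was +0.16. Psmb10, a catalytic subunit of the immunoproteasome, had signals of 2652, 2804, 2454 and 2733 in Hfe-/-xTfr2mut and 1615, 1954, 2257 and 2105 in wild-type. The groups were separate and the log2 difference was +0.43 (SE 0.11, limma adjusted p = 0.215, exact permutation p = 0.0286). The other catalytic immunoproteasome subunits, Psmb8 and Psmb9, were detected in 0 arrays. H2-M3, a nonclassical class I molecule that presents formylated peptides, was at 119 ± 15.4 in Hfe-/-xTfr2mut and 87.3 ± 11.03 in wild-type, +0.44 (SE 0.13, adjusted p = 0.247 in limma). Pdia3, a chaperone of the class I loading complex and a bright gene of this list, differed by -0.13 (SE 0.11).

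Among sensors and adaptors 2 of 7 detected genes were higher and 0 lower, where 6.79% of all genes were higher. Trex1, which degrades cytosolic DNA, had signals of 221, 228, 198 and 197 in Hfe-/-xTfr2mut and 147, 155, 169 and 191 in wild-type, +0.35 (SE 0.11). Rnaseh2c, a subunit of the enzyme that removes RNA from RNA-DNA hybrids, had 225, 242, 214 and 206 in Hfe-/-xTfr2mut and 162, 184, 192 and 163 in wild-type, +0.34 (SE 0.10). Both were separate between the groups, as were 8.04% of all genes, with limma adjusted p-values of 0.278 and 0.253. The brightest genes of the list did not pass: Tbk1, the kinase that phosphorylates IRF3, differed by +0.02 (SE 0.10), and Rnf135, a ubiquitin ligase that acts on RIG-I, by +0.27 (SE 0.15).
Among ligands, receptors and signalling genes 1 of 12 was lower, beside 5.7% of all genes. Jak2, a kinase of the interferon-γ receptor, was at 424 ± 66.9 in Hfe-/-xTfr2mut and 522 ± 76.0 in wild-type, -0.30 (SE 0.14, limma adjusted p = 0.390). Irf2, a factor that competes with IRF1, and Irf2bp1, a corepressor that binds IRF2, differed by -0.09 (SE 0.09) and 0.00 (SE 0.14). The genes for the interferons themselves, Ifnb1 and Ifng, and the receptor subunit Ifnar1 were detected in 0 arrays. This says that the probes gave no signal, not that the transcripts were absent. Of 15 further interferon-induced genes and 3 class II genes 0 passed the unadjusted threshold in either direction. Irgm1, an interferon-inducible GTPase and the brightest of these induced genes, differed by +0.23 (SE 0.12), and Shisa5 by -0.05 (SE 0.11). In class II processing, the lysosomal protease Lgmn differed by -0.11 (SE 0.09) and H2-DMa, a chain of the molecule that edits class II peptides, by -0.03 (SE 0.09).

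Of the 9 cell types with a detected marker, the summed marker signal was separate between the groups for microglia and for endothelial cells and pericytes. By gene, 8.04% of all detected genes had separate groups and 12.5% passed the unadjusted threshold. In these 2 marker lists 0 genes passed adjustment, with smallest limma adjusted p-values of 0.328 (microglia) and 0.238 (endothelial cells and pericytes). The summed signal of the 9 detected microglia markers was 3901 to 4176 in Hfe-/-xTfr2mut arrays and 3427 to 3873 in wild-type arrays, without overlap. Of these, Aif1 (+0.27), Trem2 (+0.25) and Tyrobp (+0.37) passed the unadjusted threshold, and Itgam was undetected. The other detected microglia markers did not pass. Of the 9 log2 differences, 8 were positive and 1 was negative, and they ran from -0.06 to +0.37.
The sum of the 5 detected endothelial and pericyte markers was 2975 to 4103 in Hfe-/-xTfr2mut and 4209 to 4702 in wild-type, also without overlap. Vtn (-0.50), Flt1 (-0.41) and Tek (-0.56) passed the threshold, while Cdh5, Kdr, Kcnj8 and Abcc9 were detected in 0 arrays. Pdgfrb and the brighter Pecam1 probe were each detected in only 1 Hfe-/-xTfr2mut and 3 wild-type arrays, so they were not tested.
Gbp2 and Stat2 were thus lower in the group with the higher microglia sum and the lower endothelial sum, and the part of these markers in the results was not tested. Among the Hfe-/-xTfr2mut arrays, replicate 4 had the lowest endothelial sum (2975) and the highest Cd74 signal (135). Replicate 3 had the highest endothelial sum (4103) and the next highest Cd74 signal (97), and a relation between them was not tested. At the second Cd74 probe the order differed, with replicate 4 the lowest (85) and replicate 3 the highest (111) of the Hfe-/-xTfr2mut arrays. In bulk tissue, fewer cells of a type and less RNA per cell cannot be told apart.

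Detection of leukocyte markers differed by type. Of the 10 lymphocyte markers with a probe, 0 were detected in every array of a group. Cd3e was detected in 3 Hfe-/-xTfr2mut arrays and 1 wild-type array (signal 56.8 to 99.2 and 34.4 to 74.2). The others, Ptprc (CD45) included, were detected in 0 arrays. The probes of the neuronal marker Snap25 and the oligodendrocyte marker Olig2 were also detected in 0 arrays. An undetected marker thus says that its probe gave no signal, not that its transcript was absent. The 2 detected border macrophage markers of 8 summed to 180.4 to 309 in Hfe-/-xTfr2mut and 162 to 285 in wild-type. Of the untested ones, F13a1 was detected in 3 arrays of each group and Cbr2 in 2 Hfe-/-xTfr2mut arrays and 1 wild-type array. Cd163 was detected in 1 Hfe-/-xTfr2mut array only and Lyve1 in 0 arrays. The 3 detected neutrophil and dendritic cell markers of 8 summed to 667 to 1345 in Hfe-/-xTfr2mut and 425 to 944 in wild-type. All 3 had positive log2 differences, none past the unadjusted threshold. S100a8 differed by +0.84 (signal 289 to 769.98 in Hfe-/-xTfr2mut and 145 to 476 in wild-type), S100a9 by +0.54 and Siglech by +0.20. The other markers of this list with a probe were detected in 0 arrays, and which cells gave the Siglech signal was not tested. The 2 detected red cell transcripts, Hbb-b2 (+1.32) and Hba-a1 (+1.06), passed the unadjusted threshold and summed to 1706 to 4916 in Hfe-/-xTfr2mut and 1210 to 2203 in wild-type, although the mice had been perfused with saline. The sums of neural and choroid plexus markers overlapped between the groups. The neuronal sum, 81573 to 84998 in Hfe-/-xTfr2mut and 82157 to 93141 in wild-type, was that of brain tissue as labelled, with 7 of 8 markers detected, and Syt1 (-0.34) passed the unadjusted threshold. The oligodendrocyte sum (6 of 7 markers detected) was 60252 to 64727 in Hfe-/-xTfr2mut and 60391 to 70213 in wild-type. All 6 differences were negative, and Cnp (-0.23) passed and had separate groups. The astrocyte sum was 52517 to 56979 in Hfe-/-xTfr2mut and 52786 to 61150.4 in wild-type. Of its 8 markers, 4 differences were positive and 4 negative, and only Aldh1l1 (-0.29) passed the threshold. The choroid plexus sum was 29118 to 38237 in Hfe-/-xTfr2mut and 31502 to 39089 in wild-type. Of its 7 detected markers, 2 differences were positive and 5 negative, and only Kl (-0.34) passed the threshold.

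**Figure D4:**
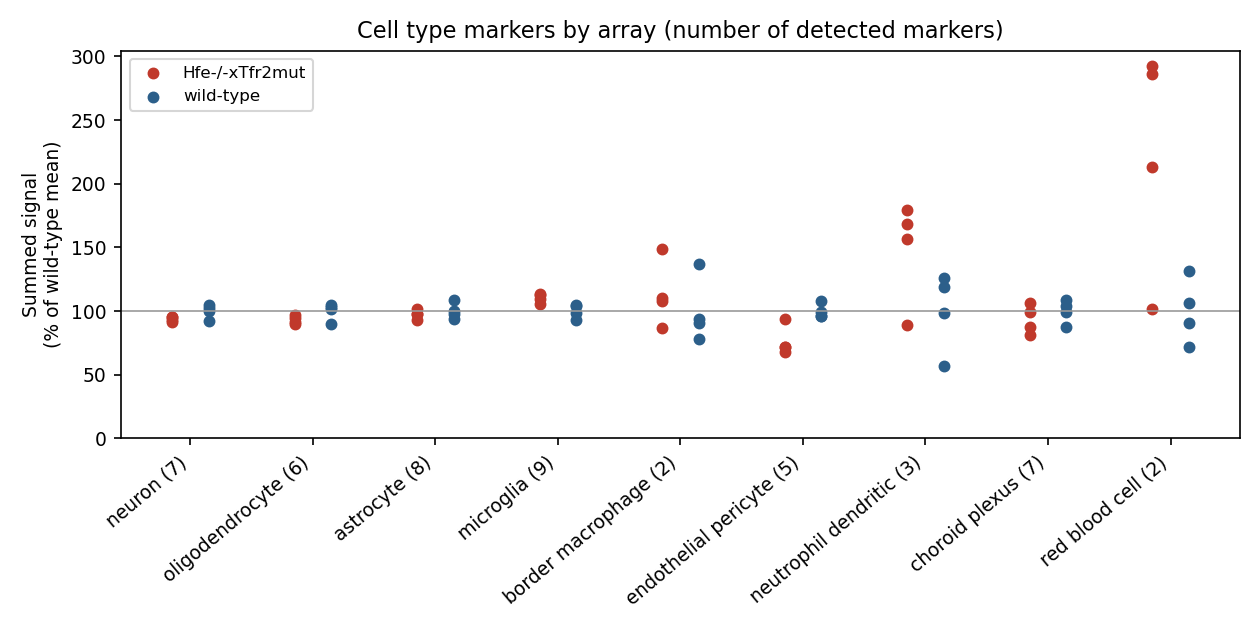
Summed cubic-spline signal of the detected markers of 9 cell types in each array, as percent of the wild-type mean, Hfe-/-xTfr2mut in red left of wild-type in blue, with the number of detected markers in brackets. The groups are separate for microglia (Hfe-/-xTfr2mut above) and for endothelial cells and pericytes (Hfe-/-xTfr2mut below).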

How the data were processed

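Total RNA from snap-frozen brain hemispheres was hybridized to 1 array per mouse. The authors subtracted background and normalized in GenomeStudio and deposited intensity values in 3 tables (non-normalized, average and cubic spline); each intensity is deposited with the detection p-value of its probe. Probe names came from RefSeq (GRCm38.p6) by Entrez identifier for 23962 of 25697 probes and from the platform annotation for 16, and 1719 stayed unnamed. Columns without a sample numbered 0.

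Cubic-spline intensities under 10 were set to 10 and log2-transformed. The 11204 probes that all arrays of 1 group or both detected (p under 0.01) were fitted with limma 3.58.1 in R 4.3.3, Hfe-/-xTfr2mut minus wild-type without covariates, with Benjamini-Hochberg adjustment over all of them. A gene is its brightest detected probe, and with 4 arrays per group the precision is limited by their number. The exact permutation test covers 70 assignments. The test was first tried on simulated data.

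The members and lists were chosen with earlier results of these data known. All members are named, and from each other list up to 4 genes of lowest unadjusted p under 0.05, with the 2 brightest pathway genes of each list. Psmb8, Psmb9, Ifnb1, Ifng, Ifnar1, S100a8, S100a9, Siglech, Cd3e, Snap25, Olig2, F13a1 and Cbr2 were named after their values were seen. Alternatives were the average-normalized and series matrix tables, quantile normalization, neqc, floors of 1 and 30, other detection filters, an equal-variance test, BeadChip position, the replicate number as a block, array weights, the mean of all probes of a gene, leaving out each array, and, added after seeing the data, the mean signal of each array as a covariate. The authors applied no correction for multiple tests.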

Additional observations from a re-analysis of the deposited data

Results flagged for a closer look

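In each group of 4 arrays, the highest and lowest signal of every tested member was compared with the nearest other value, as a share of the group's range on the log2 scale. Of 40 groups, 3 exceeded Dixon's 95% critical value, and chance gives about 1 in 20. Ifit2 in Hfe-/-xTfr2mut replicate 2 (signal 127) lay below the other Hfe-/-xTfr2mut arrays, with a ratio of 0.829001. Irf1 in wild-type replicate 3 (signal 369.7) lay above the other wild-type arrays, with a ratio of 0.876. Irf9 in wild-type replicate 4 (signal 148) lay above the other wild-type arrays, with a ratio of 0.885.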

How the results depend on the processing

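Gbp2 and Stat2 stayed lower and past the unadjusted threshold under all 23 alternatives, at -0.64 to -0.43 for Gbp2 (limma adjusted p 0.0440 to 0.423) and -0.54 to -0.33 for Stat2 (0.0645 to 0.502). With array weights, 2190 probes passed the unadjusted threshold (1427 without weights), 1069 of them lower (674 without), and 118 passed adjustment (19 without), among them 1 member, Gbp2. There 4 members passed unadjusted, 1 of them higher (Irf9), and 12 other pathway genes passed (5 without). The average-normalized table gave 356 higher and 1489 lower probes, 4 members, all 4 lower, 11 other pathway genes and an interferon median of -0.085 (+0.013 in the cubic-spline table), and the median over all genes there was -0.083. Detection in all 8 arrays left 12 probes past adjustment, no detection filter 7, with 8 other pathway genes and an interferon median of +0.073, and the equal-variance test 8. With array brightness as a covariate, an alternative chosen after seeing the data, 8 other pathway genes passed. The causes were not tested.

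Signs turned for Eif2ak2 (-0.055) and Isg15 (-0.054) in the average-normalized table, Ifit2 (+0.031) with BeadChip position, Ifitm2 (+0.023) with array weights, Ifit3 (-0.040) as the mean of its probes, and Eif2ak2 (-0.026), Ifit2 (+0.17) and Tap2 (-0.022) with array brightness. Leaving out single arrays gave ranges across 0 for Ifitm2 (-0.077 to 0.086), B2m (-0.081 to 0.021), Eif2ak2 (-0.037 to 0.13), Ifit2 (-0.30 to 0.16), Tap2 (-0.020 to 0.39) and Irf1 (-0.10 to 0.018). It gave 2 to 4 members called (4 without wild-type replicate 3), 0 to 1 higher (1 without wild-type replicate 4), 2 to 4 lower, 4 to 9 other pathway genes (9 without Hfe-/-xTfr2mut replicate 2), 1036 to 1952 probes past the unadjusted threshold and 14 to 26 past adjustment. All other member results, 433 of 459, kept their sign and side of the threshold.

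Replicate numbers did not pair the arrays: the deviations of same-numbered arrays correlated at 0.10, -0.14, -0.35 and 0.10, and 2 of 4 had their own number as best partner. With the replicate number as a block, 1128 probes and the same 2 members passed the unadjusted threshold, 0 members passed adjustment, and no member's call changed.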

Other observations

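Ifit2 and Tap2 varied across arrays within each group. Among Hfe-/-xTfr2mut arrays, replicate 2 had the lowest mean signal before normalization (569.5), the lowest Ifit2 signal (127) and the highest Tap2 signal (313), while replicate 3, the brightest (741), had the lowest Tap2 (155) but an Ifit2 signal (179) below those of replicates 1 (193) and 4 (192). Among wild-type arrays, replicate 3 had the lowest mean signal (571), the lowest Ifit2 (98) and the highest Tap2 (255), and replicate 1, the brightest (905), had the highest Ifit2 (250) and the lowest Tap2 (108). With brightness as a covariate the log2 differences were +0.17 for Ifit2 and -0.02 for Tap2.

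Pias1 and Parp12, pathway genes that did not pass the unadjusted threshold, still had separate groups, with every Hfe-/-xTfr2mut array below every wild-type array, and were picked out after their values were seen. Of the 47 detected pathway genes outside the members, 5 had separate groups, 3 higher and 2 lower. Over all detected genes 8.04% did, 4.56% being higher and 3.48% lower. Pias1, an inhibitor of STAT signalling, differed by -0.14, with signals of 779 to 863 in Hfe-/-xTfr2mut and 866 to 957 in wild-type. Parp12, an interferon-induced mono-ADP-ribosyltransferase, differed by -0.24, with 53.5 to 73.6 in Hfe-/-xTfr2mut and 74.7 to 86.8 in wild-type. It was detected in 3 Hfe-/-xTfr2mut and 4 wild-type arrays, close to the lowest detected signals of the arrays (49.6 to 69.4).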
